A study of Homo sapiens with 12 samples.

Results

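The genes that build tight junctions and gap junctions were compared between AsPC1-R and AsPC1 and between BxPC3-R and BxPC3, human pancreatic ductal adenocarcinoma cells selected for resistance to cisplatin set against the parental lines they came from. A gene belonged to the set when its symbol was that of a claudin (CLDN), a zonula occludens protein (TJP) or a connexin of the alpha, beta or gamma class (GJA, GJB, GJC), or was OCLN, MARVELD2, MARVELD3, F11R or CGN, and a probe set of the array named it alone. This gave 40 of the 18417 genes measured, namely 23 claudins, 12 connexins, 3 plaque proteins (TJP1, TJP3 and CGN) and the MARVEL proteins MARVELD2 and MARVELD3. The probe set for OCLN also names a pseudogene and was left out, and F11R was not analysed here. AsPC1-R was maintained at 1.67 µM cisplatin, and BxPC3-R at 0.60 µM, with a final passage free of the drug, and the parental lines were grown without it. Each resistant group is 1 derivative, each group has 3 arrays, and the labels do not say whether arrays are separate cultures, and the p-values rest on the spread between these arrays alone, which may be technical.

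Tight junctions seal the space between neighbouring epithelial cells near their apical side. Claudins form the sealing strands or, in some cases, ion-selective pores, occludin and the other MARVEL proteins lie in the same strands, and the zonula occludens proteins and cingulin tie the strands to actin. Gap junctions are separate structures in which connexin channels join the cytoplasm of neighbouring cells and let ions and small metabolites pass. In pancreatic ducts claudins limit leakage of juice between the cells, and several claudins and connexins are expressed differently in ductal carcinoma than in normal duct.

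Levels are log2 values from RMA, a method that corrects background, normalizes the arrays to each other and combines the probes of a probe set, and a level can be compared between groups for 1 gene but not between genes. A gene was called changed at a Benjamini-Hochberg adjusted p under 0.05 over all 18417 genes in limma, a linear model that shares information on the spread between genes. SMAD4, whose gene is lost in BxPC3, averaged 4.63 in BxPC3-R and 4.70 in BxPC3. CDKN2A, lost there too, averaged 5.75 in BxPC3-R and 6.22 in BxPC3, and its change of -0.47 passed the test (adjusted p = 0.0249 in limma), so probe sets of lost genes read well above 0 and such a reading can itself be called changed. Where a group mean lay under the median of all values, 6.55, a log2 difference between readings is given with no fold. Of the 40 junction genes, 26 reached this median in at least 1 group. All 8 duct markers examined reached it in every group, while moving in the derivatives. KRT18 and CDH1 fell and MUC1 rose in AsPC1-R, with log2 changes of -0.51, -0.46 and 0.72, and KRT8, KRT18 and KRT7 rose and MUC1 fell in BxPC3-R, with changes of 1.12, 0.78, 0.46 and -0.75. The mean over the 8 was 10.22 to 10.34 in AsPC1-R arrays and 10.29 to 10.39 in AsPC1 arrays, and 10.45 to 10.53 in BxPC3-R arrays and 10.21 to 10.35 in BxPC3 arrays. None of 5 leukocyte markers reached the median, though ITGAM was called higher in AsPC1-R (0.43, adjusted p = 0.0426) and CD3E lower in BxPC3-R (-0.47, adjusted p = 0.0184). Without BxPC3 replicate 2 the CD3E change was -0.40 and was not called (adjusted p = 0.0786 in limma). Over these 5 the mean was 5.39 to 5.50 in AsPC1-R arrays and 5.32 to 5.51 in AsPC1 arrays, and 5.196 to 5.30 in BxPC3-R arrays and 5.32 to 5.57 in BxPC3 arrays. Among 6 endothelial markers, of which CLDN5 is itself a junction gene, PECAM1 rose by 0.66 in AsPC1-R (adjusted p = 0.00292). CDH5 and PECAM1 fell in BxPC3-R, with log2 changes of -2.67 and -1.24 (adjusted p = 2.99e-08 and 1.60e-05 in limma), and the mean over the 6 was 5.997 to 6.10 in AsPC1-R arrays and 5.84 to 6.22 in AsPC1 arrays, and 5.98 to 6.04 in BxPC3-R arrays and 6.61 to 6.73 in BxPC3 arrays, while VWF, KDR and TIE1 stayed below the median of all values in every group. Among 6 fibroblast markers, LUM was the only 1 called in either derivative. It averaged 10.51 in AsPC1-R and 11.55 in AsPC1, and 6.45 in BxPC3-R and 4.91 in BxPC3. The mean over these 6 was 6.69 to 6.74 in AsPC1-R arrays and 6.86 to 7.03 in AsPC1 arrays, and 5.92 to 6.06 in BxPC3-R arrays and 5.59 to 5.83 in BxPC3 arrays. The part of these markers in the junction results was not tested, and in bulk RNA fewer cells of a kind and less RNA per cell cannot be told apart.

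BxPC3 replicate 2 stood apart from the other BxPC3 arrays. CDH17, an intestinal cadherin, read 9.002 on it against 4.99 and 4.47 on replicates 1 and 3, and 13.33, 13.20 and 13.31 in AsPC1. The 50 genes that exceeded BxPC3-R most in AsPC1 were all higher on it than on the other BxPC3 arrays, by a median of 0.83. Of the 11 junction genes higher in AsPC1 than in BxPC3, 4 were highest on replicate 2 and the median excess over the 11 was -0.10. Junction results that use BxPC3 are given with and without this array, and where 1 value stands alone its call was the same without it, other than for CGN and CLDN3 in AsPC1-R.

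In AsPC1-R, 8 of the 40 junction genes changed (20.0%, against 20.3% of all genes), 4 upward and 4 downward (against 11.6% and 8.64% of all genes). CLDN1, CLDN16, CLDN2 and the connexin GJC3 rose, and CLDN7, CLDN6, MARVELD2 and the connexin GJB1 fell. In BxPC3-R, 14 of the 40 changed (35.0%, against 20.8% of all genes). Of these 12 fell, against 11% of all genes, and 2, CLDN8 and GJB5, rose, against 9.75%. Without BxPC3 replicate 2, 13 of the same genes changed in BxPC3-R, 2 upward and 11 downward, against 17.4% of all genes, and 10 changed in AsPC1-R, where leaving it out alters only the estimate of the spread, 5 in each direction, against 20.2%, with CGN and CLDN3 added. The median change over the 40 was -0.05 in AsPC1-R and -0.05 in BxPC3-R, against -0.05 and 0.02 over all genes, so in both derivatives the middle of the set lay within 0.1 of no change. At least 2-fold changes were seen for 3 members in each derivative, against 2.33% of all genes in AsPC1-R and 2.32% in BxPC3-R. Among these members, CLDN16 and GJB1 in AsPC1-R and CLDN8 in BxPC3-R were compared with a group mean under the median of all values, so their fold is uncertain. The arrays of derivative and parent did not overlap for 12 members in AsPC1-R and 17 in BxPC3-R, against 33.4% and 38.2% of all genes, and every member called was among them.

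**Figure D1:**
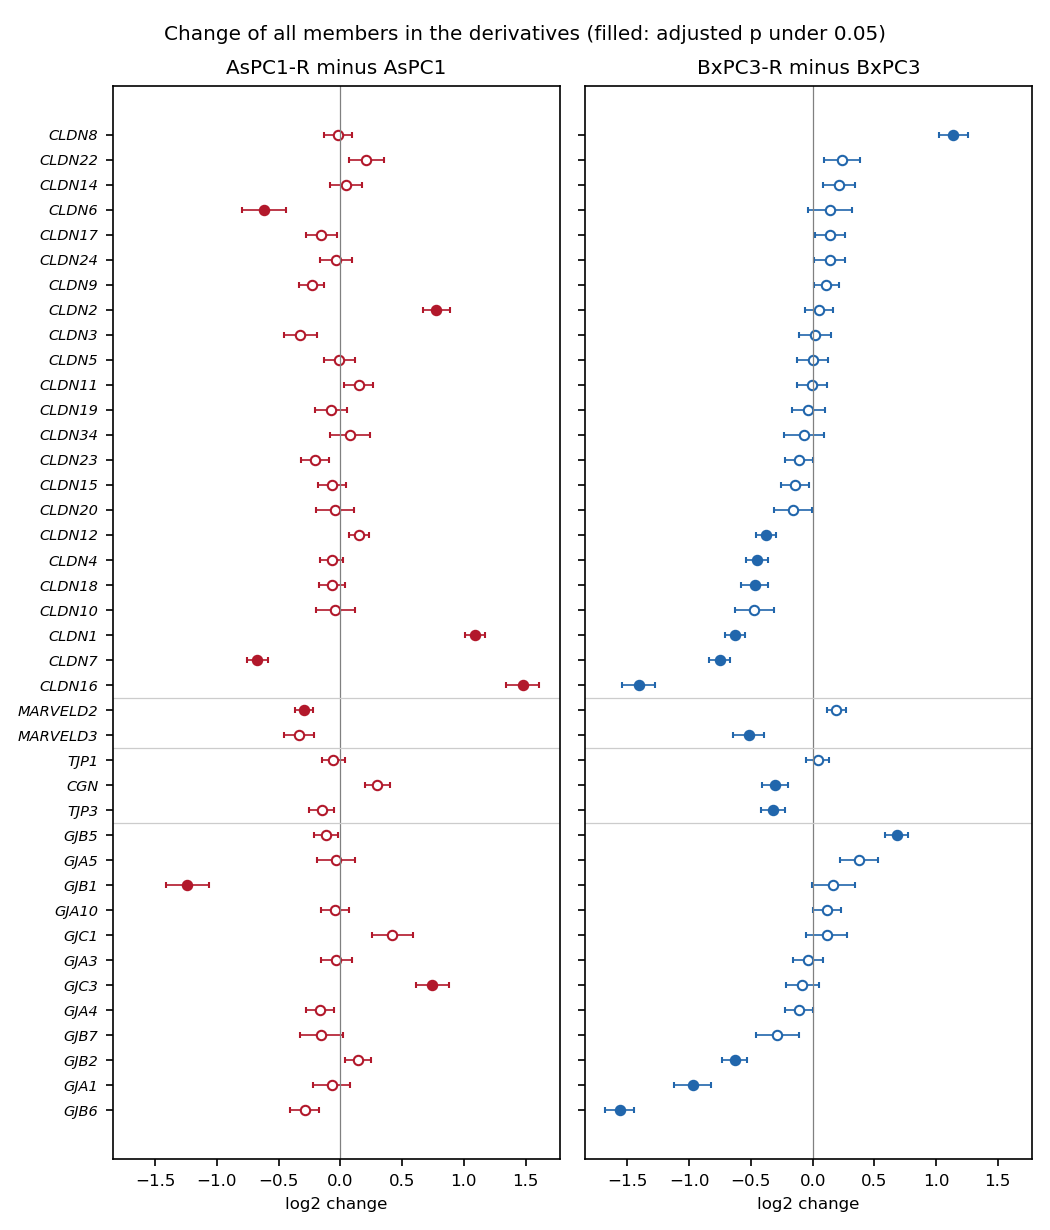
Log2 change of all 40 junction genes in AsPC1-R relative to AsPC1 and in BxPC3-R relative to BxPC3, with standard errors from limma and 3 arrays per group, where filled points passed the adjusted p of 0.05. CLDN16 lies at 1.48 in AsPC1-R and at -1.41 in BxPC3-R, CLDN7 lies below 0 in both, and GJB6 has the lowest value in BxPC3-R, -1.56.

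CLDN1 and CLDN16 were the 2 members that changed in both derivatives in opposite directions, a pattern seen in 5.38% of all genes. CLDN1 is a sealing claudin, and CLDN16 is known for paracellular magnesium transport in the kidney. Their genes lie at the same place on chromosome 3: in RefSeq the span of CLDN1 lies inside that of CLDN16, on the opposite strand. The sequences below, from RefSeq on GRCh38.p14, run from 250 bases before to 50 after each start and are shown because these genes moved together, with both starts of CLDN16. Capitals mark matches, on either strand, to 5 motifs, namely CAGGTG (the E-box bound by SNAI and ZEB factors), TGANTCA (AP-1), AACCNGTT (grainyhead factors), GGGCGG (the GC box) and TATAAA (the TATA box), none of which lies within another. The CLDN1 window is chr3:190322397-190322696 on the minus strand, and the CLDN16 windows are chr3:190290111-190290410 and chr3:190387913-190388212 on the plus strand.
CLDN1: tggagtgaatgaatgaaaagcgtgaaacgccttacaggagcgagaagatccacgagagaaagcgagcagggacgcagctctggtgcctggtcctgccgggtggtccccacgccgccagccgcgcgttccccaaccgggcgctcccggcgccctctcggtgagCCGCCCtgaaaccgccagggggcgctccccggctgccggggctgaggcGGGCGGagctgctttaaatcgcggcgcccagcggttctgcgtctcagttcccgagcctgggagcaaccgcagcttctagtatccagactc
CLDN16 start 1: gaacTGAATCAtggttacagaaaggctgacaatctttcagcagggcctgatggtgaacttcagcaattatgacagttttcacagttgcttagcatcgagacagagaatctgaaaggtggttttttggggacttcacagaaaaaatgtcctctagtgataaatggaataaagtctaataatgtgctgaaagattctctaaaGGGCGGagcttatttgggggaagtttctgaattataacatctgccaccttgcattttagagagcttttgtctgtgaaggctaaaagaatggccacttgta
CLDN16 start 2: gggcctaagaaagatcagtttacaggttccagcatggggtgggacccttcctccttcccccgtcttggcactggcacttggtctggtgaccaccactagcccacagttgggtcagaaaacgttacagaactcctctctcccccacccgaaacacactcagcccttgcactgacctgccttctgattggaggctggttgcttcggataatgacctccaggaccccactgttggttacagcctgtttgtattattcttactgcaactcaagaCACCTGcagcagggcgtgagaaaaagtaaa
The CLDN1 window was 67% G or C and held 2 GC boxes. The first CLDN16 window was 40% G or C with 1 AP-1 match and 1 GC box, and the second was 53% with 1 E-box. A GC box was found in 45% and an AP-1 match in 7.71% of all 35116 promoter windows, an E-box in 20.6%, and the median window was 58.7% G or C. None of the motifs was found in all 3 windows.

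CLDN1 read 12.51, 12.52 and 12.42 in AsPC1-R, against 11.37, 11.46 and 11.35 in AsPC1. It read 12.30, 12.24 and 12.29 in BxPC3-R, against 13.03, 12.88 and 12.82 in BxPC3. Every AsPC1-R array was therefore above every AsPC1 array and every BxPC3-R array below every BxPC3 array. The rise in AsPC1-R was 1.09 on the log2 scale (SE 0.08), or 2.13-fold, with an adjusted p of 2.93e-07 in limma. The fall in BxPC3-R was 1.55-fold, a log2 change of -0.63 (SE 0.08, adjusted p = 6.32e-05), and -0.64 without BxPC3 replicate 2 (adjusted p = 0.000312). CLDN1 thus rose in the derivative of the line with the lower level and fell in that of the line with the higher level. CLDN16 read 7.79, 7.50 and 7.47 in AsPC1-R, against 5.92, 6.45 and 5.96 in AsPC1. In the other line it read 7.12, 7.35 and 7.19 in BxPC3-R, against 8.68, 8.64 and 8.57 in BxPC3. Again neither pair of groups overlapped, and the array values of AsPC1 spread most, with an SD of 0.30. CLDN16 rose by 1.48 on the log2 scale in AsPC1-R (SE 0.13, adjusted p = 2.61e-06), and fell 2.66-fold in BxPC3-R, with a change of -1.41 both with all arrays (SE 0.13, adjusted p = 5.08e-06) and without replicate 2 (adjusted p = 4.47e-05). The difference between the derivatives' changes was 1.72 for CLDN1 (adjusted p = 8.29e-08) and 2.89 for CLDN16 (adjusted p = 8.56e-08), and 1.73 and 2.88 without BxPC3 replicate 2.

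CLDN7, a claudin of the lateral membrane of epithelial cells, was the 1 member that changed in the same direction in both derivatives, against 2.36% of all genes. It read 7.94, 7.98 and 7.83 in AsPC1-R, against 8.46, 8.70 and 8.62 in AsPC1. It read 8.03, 8.01 and 7.94 in BxPC3-R, against 8.78, 8.80 and 8.66 in BxPC3. All 6 derivative arrays lay below all 6 parental arrays, and the derivatives' own ranges met. The fall was 1.60-fold in AsPC1-R, with a log2 change of -0.68 (SE 0.08, adjusted p = 6.22e-05 in limma). In BxPC3-R it was 1.68-fold, with a log2 change of -0.75 (SE 0.08, adjusted p = 2.31e-05), and -0.72 without replicate 2 (adjusted p = 0.000189). The difference between these changes was 0.08 (SE 0.12, adjusted p = 0.687), so none was detected with 3 arrays per group. RefSeq gives CLDN7 2 starts on chromosome 17. The window of the second, chr17:7262429-7262728 on the minus strand of GRCh38.p14, is shown for its 5 E-boxes, in capitals with 2 GC boxes.
CLDN7 start 2: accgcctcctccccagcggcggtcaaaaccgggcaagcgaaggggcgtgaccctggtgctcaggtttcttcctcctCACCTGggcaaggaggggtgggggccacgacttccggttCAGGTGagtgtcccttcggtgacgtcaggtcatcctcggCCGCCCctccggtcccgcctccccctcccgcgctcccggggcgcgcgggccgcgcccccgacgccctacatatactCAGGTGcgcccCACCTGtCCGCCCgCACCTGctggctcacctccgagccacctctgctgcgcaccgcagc
This window was 71.7% G or C. The window of the other start held none of the 5 motifs. Among 43 windows of the 30 junction genes that matched the RefSeq table, 12 held an E-box (27.9%, against 20.6% of all windows), 20 a GC box (46.5% against 45%), 5 an AP-1 match (11.6% against 7.71%), 2 a TATA box (4.65% against 11.5%) and 1, that of CGN, a grainyhead match (1.73% of all windows). A match describes the letters in a window and does not show that a factor binds there.

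**Figure D2:**
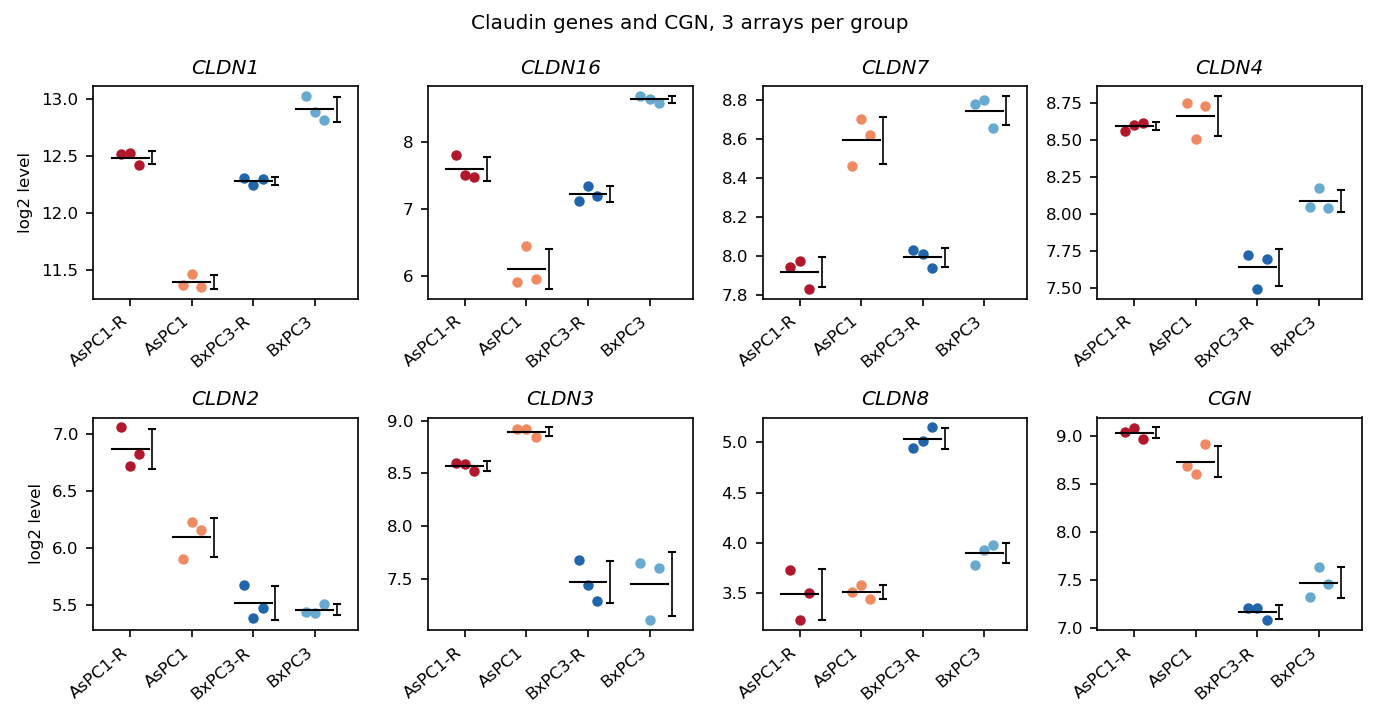
Log2 RMA levels of 7 claudins and of CGN on every array, by group in the order AsPC1-R, AsPC1, BxPC3-R and BxPC3, where points are arrays, lines are group means and the bar beside them is the SD of 3 arrays. CLDN1 and CLDN16 are higher in AsPC1-R than in AsPC1 and lower in BxPC3-R than in BxPC3, CLDN7 is lower in both derivatives, and CLDN8 is highest in BxPC3-R.

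The other claudins that changed did so past the threshold in 1 derivative. CLDN2, a pore-forming claudin that passes cations and water, read 7.06, 6.73 and 6.82 in AsPC1-R, against 5.90, 6.23 and 6.15 in AsPC1. It read 5.68, 5.39 and 5.47 in BxPC3-R, against 5.44, 5.42 and 5.51 in BxPC3. Only the AsPC1-R arrays passed the median of all values. CLDN2 rose by 0.78 in AsPC1-R (SE 0.11, adjusted p = 0.000208 in limma), and its change in BxPC3-R was 0.05 (adjusted p = 0.814). The 2 changes differed by 0.72 (adjusted p = 0.00389), or by 0.74 without BxPC3 replicate 2. CLDN6, a claudin of embryonic epithelia, read 4.57, 4.65 and 4.96 in AsPC1-R, against 4.97, 5.59 and 5.49 in AsPC1. It read 4.85, 5.03 and 4.42 in BxPC3-R and 4.63, 4.77 and 4.48 in BxPC3, and all its values lay below the median of all values. Its change of -0.62 in AsPC1-R (SE 0.18, adjusted p = 0.0235) had its highest AsPC1-R array side by side with its lowest AsPC1 array, and did not pass when AsPC1 replicate 2 or 3 or AsPC1-R replicate 1 or 2 was left out (adjusted p = 0.0656 to 0.0937).

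In BxPC3-R, CLDN8, a barrier claudin of the distal nephron and colon, read 4.95, 5.01 and 5.15, against 3.78, 3.93 and 3.98 in BxPC3. In AsPC1-R it read 3.73, 3.23 and 3.50, against 3.51, 3.57 and 3.44 in AsPC1. The BxPC3-R arrays stood above all the others, yet no array reached the median of all values, and BxPC3, at a mean of 3.90, read below lost SMAD4. CLDN8 rose by 1.14 in BxPC3-R (SE 0.12, adjusted p = 8.94e-06 in limma), or by 1.16 without replicate 2 (adjusted p = 6.11e-05), and its change in AsPC1-R was -0.02 (adjusted p = 0.923). CLDN4, a barrier claudin that is also a receptor for Clostridium enterotoxin, read 7.72, 7.49 and 7.69 in BxPC3-R, against 8.04, 8.18 and 8.04 in BxPC3, and 8.56, 8.60 and 8.62 in AsPC1-R, against 8.75, 8.51 and 8.73 in AsPC1. It fell by 0.45 in BxPC3-R on the log2 scale (adjusted p = 0.00265, and 0.0144 without replicate 2, where the change was -0.41), while its change in AsPC1-R was -0.07 (adjusted p = 0.627). CLDN12 read 9.88, 9.86 and 10.00 in BxPC3-R, against 10.32, 10.35 and 10.21 in BxPC3, a change of -0.38 (adjusted p = 0.00447, and -0.35 with 0.0205 without replicate 2). CLDN12 is a claudin tied to calcium transport in the gut. CLDN18, known from stomach and lung and as an antibody target in gastric cancer, read 5.66, 5.48 and 5.59 in BxPC3-R, against 6.14, 6.08 and 5.93 in BxPC3. It fell by 0.47 there (adjusted p = 0.00535, and 0.0201 without replicate 2) while staying under the median of all values, and its change in AsPC1-R was -0.07 (adjusted p = 0.703). The claudins that were not called numbered 18 in AsPC1-R, with changes between -0.33 and 0.21, and 16 in BxPC3-R, with changes between -0.47 and 0.24.

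Of the MARVEL proteins, MARVELD2 (tricellulin, which seals the corners where cells of an epithelium meet) read 10.02, 10.00 and 10.06 in AsPC1-R, against 10.28, 10.37 and 10.32 in AsPC1. It read 10.03, 10.04 and 10.07 in BxPC3-R, against 9.97, 9.79 and 9.81 in BxPC3. It fell by 0.30 in AsPC1-R (adjusted p = 0.0123 in limma, and 0.0530 when only AsPC1-R and AsPC1 were fitted), and in BxPC3-R its change was 0.19 (adjusted p = 0.0939). The 2 changes differed by -0.49 (adjusted p = 0.00371), or by -0.45 without BxPC3 replicate 2 (adjusted p = 0.0109). MARVELD3 read 7.81, 7.97 and 7.99 in BxPC3-R, against 8.25, 8.50 and 8.58 in BxPC3, and 6.83, 7.14 and 6.84 in AsPC1-R, against 7.40, 7.05 and 7.38 in AsPC1. It fell by 0.52 in BxPC3-R (adjusted p = 0.00742, and -0.49 with 0.0292 without replicate 2), and in AsPC1-R its change was -0.34 (adjusted p = 0.0706), with overlapping arrays.

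Of the plaque proteins, TJP1, the zonula occludens scaffold that binds claudin tails, read 11.63, 11.56 and 11.65 in AsPC1-R, against 11.73, 11.79 and 11.49 in AsPC1. It read 12.08, 11.98 and 11.98 in BxPC3-R, against 12.07, 11.98 and 11.87 in BxPC3. Both pairs overlapped, and the changes were -0.06 (SE 0.09, adjusted p = 0.711) and 0.04 (SE 0.09, adjusted p = 0.825). TJP3, a related scaffold of epithelia, read 7.34, 7.45 and 7.27 in BxPC3-R, against 7.83, 7.59 and 7.60 in BxPC3, and 8.62, 8.44 and 8.46 in AsPC1-R, against 8.54, 8.81 and 8.63 in AsPC1. Its change in BxPC3-R was -0.32 (adjusted p = 0.0345 in limma, and -0.36 with 0.0410 without replicate 2). That call was lost without BxPC3 replicate 1 (adjusted p = 0.140) or 3 (0.0505), or BxPC3-R replicate 1 (0.0943) or 3 (0.124). CGN (cingulin, which links the plaque to actomyosin) read 9.04, 9.08 and 8.97 in AsPC1-R, against 8.68, 8.60 and 8.91 in AsPC1. In the other line it read 7.21, 7.21 and 7.08 in BxPC3-R, against 7.32, 7.64 and 7.46 in BxPC3. The AsPC1-R arrays lay above those of AsPC1 and the BxPC3-R arrays below those of BxPC3. The changes were 0.30 (adjusted p = 0.0535) and -0.31 (adjusted p = 0.0487). Without BxPC3 replicate 2 both calls changed, since the first passed (adjusted p = 0.0402) and the second, then -0.22, did not (adjusted p = 0.199). The difference between the changes of CGN was 0.61 (adjusted p = 0.00665), or 0.52 without that array (adjusted p = 0.0174).

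Among the 12 connexins, 3 fell in BxPC3-R (GJA1, GJB2 and GJB6) and GJB5 rose there, while GJB1 fell and GJC3 rose in AsPC1-R. GJA1 is the connexin found in the widest range of tissues, GJB2 and GJB6 form mixed channels in skin and the inner ear, and GJB1 is the main connexin of liver and is found in pancreatic acinar cells. The promoter windows of the 3 that fell in BxPC3-R are shown because these genes also differ most between the lines among the connexins. On GRCh38.p14 they are chr6:121435396-121435695 on the plus strand for GJA1, and chr13:20192889-20193188 and chr13:20230929-20231228 on the minus strand for GJB2 and GJB6, with motif matches in capitals as above.
GJA1: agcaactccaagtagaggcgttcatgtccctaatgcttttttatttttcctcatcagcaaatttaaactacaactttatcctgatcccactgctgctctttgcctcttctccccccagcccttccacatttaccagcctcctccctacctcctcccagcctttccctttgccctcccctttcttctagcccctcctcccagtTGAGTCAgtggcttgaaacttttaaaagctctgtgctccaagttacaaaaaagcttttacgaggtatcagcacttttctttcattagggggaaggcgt
GJB2: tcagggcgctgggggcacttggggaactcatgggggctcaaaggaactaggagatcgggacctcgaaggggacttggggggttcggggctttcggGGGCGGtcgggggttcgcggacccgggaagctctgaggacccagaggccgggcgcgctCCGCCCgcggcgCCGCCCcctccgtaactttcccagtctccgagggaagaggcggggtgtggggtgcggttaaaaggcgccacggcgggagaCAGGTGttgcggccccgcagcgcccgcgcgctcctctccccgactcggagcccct
GJB6: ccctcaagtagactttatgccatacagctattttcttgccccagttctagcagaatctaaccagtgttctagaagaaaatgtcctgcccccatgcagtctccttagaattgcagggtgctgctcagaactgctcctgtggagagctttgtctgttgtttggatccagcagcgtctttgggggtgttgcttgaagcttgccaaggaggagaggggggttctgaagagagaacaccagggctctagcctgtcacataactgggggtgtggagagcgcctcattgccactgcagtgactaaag
The GJA1 window was 47% G or C with 1 AP-1 match. The GJB2 window was 71.7% G or C, with 1 E-box and 3 GC boxes. The GJB6 window was 51.3% G or C and held none of the 5 motifs.

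GJA1 read 10.17, 10.34 and 10.44 in BxPC3-R, against 11.11, 11.42 and 11.33 in BxPC3. It read 6.71, 6.14 and 6.41 in AsPC1-R, against 6.28, 6.46 and 6.73 in AsPC1, where the groups overlapped. GJA1 thus fell in BxPC3-R but stayed far above the level of either AsPC1 group. Its fall was 1.96-fold, a log2 change of -0.97 (SE 0.15, adjusted p = 0.000310 in limma), and -0.91 without BxPC3 replicate 2 (adjusted p = 0.00203). In AsPC1-R its change was -0.07 (SE 0.15, adjusted p = 0.782). GJB2 read 9.45, 9.39 and 9.32 in BxPC3-R, against 10.00, 10.06 and 10.00 in BxPC3, and 7.47, 7.44 and 7.33 in AsPC1-R, against 7.53, 7.09 and 7.18 in AsPC1. It fell 1.55-fold in BxPC3-R, with a log2 change of -0.63 (SE 0.10, adjusted p = 0.000529) and of -0.61 without replicate 2 (adjusted p = 0.00297). GJB6 read 7.26, 7.20 and 7.08 in BxPC3-R, against 8.70, 8.84 and 8.69 in BxPC3. In AsPC1-R it read 5.98, 5.98 and 6.41, against 6.28, 6.48 and 6.49 in AsPC1. No BxPC3-R array came near the BxPC3 arrays, while the AsPC1-R and AsPC1 arrays overlapped. The fall of GJB6 in BxPC3-R was 2.95-fold, a log2 change of -1.56 (SE 0.12, adjusted p = 4.84e-07), and -1.51 without replicate 2 (adjusted p = 5.68e-06).

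GJB5, a connexin of stratified epithelia and placenta in rodents, moved the other way from these 3 in BxPC3-R. It read 9.04, 8.99 and 9.12 there, against 8.27, 8.44 and 8.40 in BxPC3, and 8.07, 8.19 and 8.15 in AsPC1-R, against 8.32, 8.04 and 8.39 in AsPC1. It rose 1.60-fold in BxPC3-R, by 0.68 (SE 0.10, adjusted p = 0.000156 in limma), or by 0.72 without replicate 2 (adjusted p = 0.000506). GJB1 read 6.15, 6.32 and 6.56 in AsPC1-R, against 7.30, 7.999 and 7.45 in AsPC1. It read 6.18, 6.57 and 6.12 in BxPC3-R, against 6.12, 5.94 and 6.30 in BxPC3. AsPC1 was thus the group that stood above the rest, and AsPC1-R read within the range of BxPC3-R. GJB1 fell in AsPC1-R, with a log2 change of -1.24 (SE 0.18, adjusted p = 0.000181), and its change in BxPC3-R was 0.17 (adjusted p = 0.597). GJC3 read 6.07, 6.53 and 6.31 in AsPC1-R, against 5.57, 5.57 and 5.54 in AsPC1, and 5.08, 5.35 and 5.54 in BxPC3-R, against 5.48, 5.54 and 5.21 in BxPC3. It rose in AsPC1-R by 0.74 (SE 0.13, adjusted p = 0.00122), though all its values lay under the median of all values. GJC3 is expressed by myelinating glia in mouse. The connexins that were not called had changes between -0.29 and 0.42 in AsPC1-R (10 genes) and between -0.29 and 0.38 in BxPC3-R (8 genes).

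**Figure D3:**
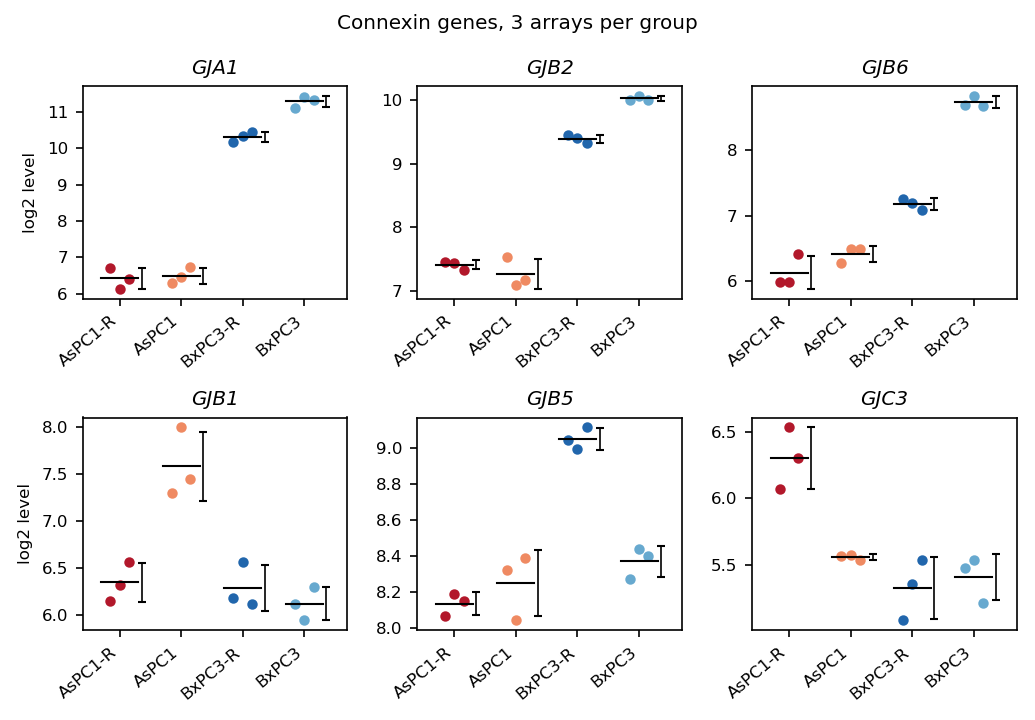
Log2 RMA levels of 6 connexins on every array, by group in the order AsPC1-R, AsPC1, BxPC3-R and BxPC3, where points are arrays, lines are group means and the bar beside them is the SD of 3 arrays. GJA1, GJB2 and GJB6 are lower in BxPC3-R than in BxPC3 and lowest in both AsPC1 groups, and GJB1 is high in AsPC1 alone.

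The test of the difference between the derivatives' changes was passed by 15 of the 40 junction genes (37.5%, against 25.4% of all genes), and by 14 without BxPC3 replicate 2 (against 22.7%). Of these, 10 had the higher change in AsPC1-R (against 14.1% of all genes) and 5 (against 11.3%, GJB1, CLDN8, GJB5, CLDN6 and MARVELD2) the higher change in BxPC3-R. The difference was 1.27 for GJB6 (adjusted p = 5.91e-05 in limma), 0.90 for GJA1 (adjusted p = 0.00583) and 0.78 for GJB2 (adjusted p = 0.00132). Without BxPC3 replicate 2 it was 1.22, 0.84 and 0.75. By this test the falls of these 3 connexins in BxPC3-R differed from what AsPC1-R showed. In AsPC1, however, GJA1 and GJB6 averaged 6.49 and 6.42, under the median of all values, where a fall may not be readable. The difference was -1.41 for GJB1 (adjusted p = 0.000806), -1.16 for CLDN8 (adjusted p = 0.000123), -0.80 for GJB5 (adjusted p = 0.000608) and 0.83 for GJC3 (adjusted p = 0.00515), and without that array -1.32, -1.18, -0.83 and 0.76 in the same order. For CLDN12 it was 0.53 (adjusted p = 0.00407), or 0.50 without it. For CLDN4 it was 0.38 (adjusted p = 0.0464), and 0.33 without BxPC3 replicate 2 (adjusted p = 0.105). CLDN18, MARVELD3 and TJP3, which fell past the threshold in BxPC3-R, did not pass this test, so their changes are not shown to differ between the derivatives.

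The parental lines differed in 23 of the 40 junction genes (57.5%, against 50.6% of all genes), 11 higher in AsPC1 (against 27.7%) and 12 higher in BxPC3 (against 22.9%). The arrays did not overlap for 23 (against 54.3% of all genes), and 10 differed at least 2-fold (against 11.1%). Among the latter, GJA1, GJB1, GJB6, CLDN10 and CLDN16 had a parental mean under the median of all values. These comparisons use the same parental arrays as the changes above. GJA1 averaged 6.49 ± 0.23 in AsPC1 and 11.29 ± 0.16 in BxPC3 (SD, n = 3 each), a log2 difference of -4.79 (adjusted p = 4.46e-12 in limma), with the AsPC1 level near that of lost CDKN2A in BxPC3. GJB2 was 6.73-fold lower in AsPC1 (-2.75, adjusted p = 3.17e-11) and GJB6 was lower by a log2 difference of -2.33 (adjusted p = 6.70e-10). CLDN16 was also lower there (-2.52, adjusted p = 1.36e-09) and CLDN1 2.86-fold lower (-1.51, adjusted p = 1.13e-09). MARVELD3 was also lower in AsPC1 (-1.17, adjusted p = 2.27e-06), as was CLDN10, a claudin of ion-selective pores in kidney and glands (-1.16, adjusted p = 3.18e-05). The CLDN10 means, 4.58 in AsPC1 and 5.74 in BxPC3, both lay under the median of all values. In the other direction, GJB1 averaged 7.58 ± 0.37 in AsPC1 and 6.12 ± 0.18 in BxPC3, a log2 difference of 1.47 (adjusted p = 8.93e-06). CLDN3, a barrier claudin, read 8.92, 8.92 and 8.85 in AsPC1, against 7.65, 7.11 and 7.61 in BxPC3, with replicate 2 the lowest. CLDN3 was 2.71-fold higher in AsPC1 (1.44, adjusted p = 5.37e-07), with a log2 difference of 1.27 without that array. CGN was 2.39-fold higher (1.26, adjusted p = 1.42e-07) and TJP3 1.98-fold higher (0.99, adjusted p = 1.42e-06). Without BxPC3 replicate 2, 21 of the 23 still differed (against 42.0% of all genes), and CLDN5 (adjusted p = 0.0844) and CLDN34 (0.129) did not. The differences named here kept their call and direction on leaving it out.

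The derivatives, compared directly after the values had been seen, differed in 21 of the 40 (52.5%, against 43.3% of all genes), 12 higher in AsPC1-R (against 21.3%) and 9 higher in BxPC3-R (against 22.0%). The arrays did not overlap for 25 (against 55.4%), and 9 differed at least 2-fold (against 10.4%). Among the latter, GJA1, GJB6, CLDN2 and CLDN8 had a derivative mean under the median of all values. No array is shared between this comparison and that of the parents. CLDN1 averaged 12.48 ± 0.06 in AsPC1-R and 12.28 ± 0.03 in BxPC3-R (SD, n = 3 each), a log2 difference of 0.20 (SE 0.08, adjusted p = 0.0512 in limma), against -1.51 between the parents. CLDN16 averaged 7.59 ± 0.18 in AsPC1-R and 7.22 ± 0.12 in BxPC3-R, a difference of 0.37 (adjusted p = 0.0373) against -2.52 between the parents. For GJB1 the difference was 0.06 (SE 0.18, adjusted p = 0.841) between the derivatives and 1.47 between the parents. These 3 genes lay closer together in the derivatives than in the parents. For GJB1, however, the means of 6.34 in AsPC1-R and 6.29 in BxPC3-R lay under the median of all values, as did 6.12 in BxPC3. For GJB6 the difference was -1.05 between the derivatives and -2.33 between the parents, for GJA1 -3.89 and -4.79, and for GJB2 -1.97 and -2.75. The tests of the difference between the changes, given above, are the tests of these shifts. Other genes lay further apart in the derivatives. CGN differed by 1.86 between the derivatives (adjusted p = 2.19e-09) and by 1.26 between the parents, CLDN12 by 1.16 and by 0.63, and CLDN2 by 1.36 and by 0.64. CLDN8 differed by -1.55 (adjusted p = 6.31e-08) and by -0.39, and GJB5 by -0.92 (adjusted p = 2.21e-06) and by -0.12, the last not called (adjusted p = 0.307).

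**Figure D4:**
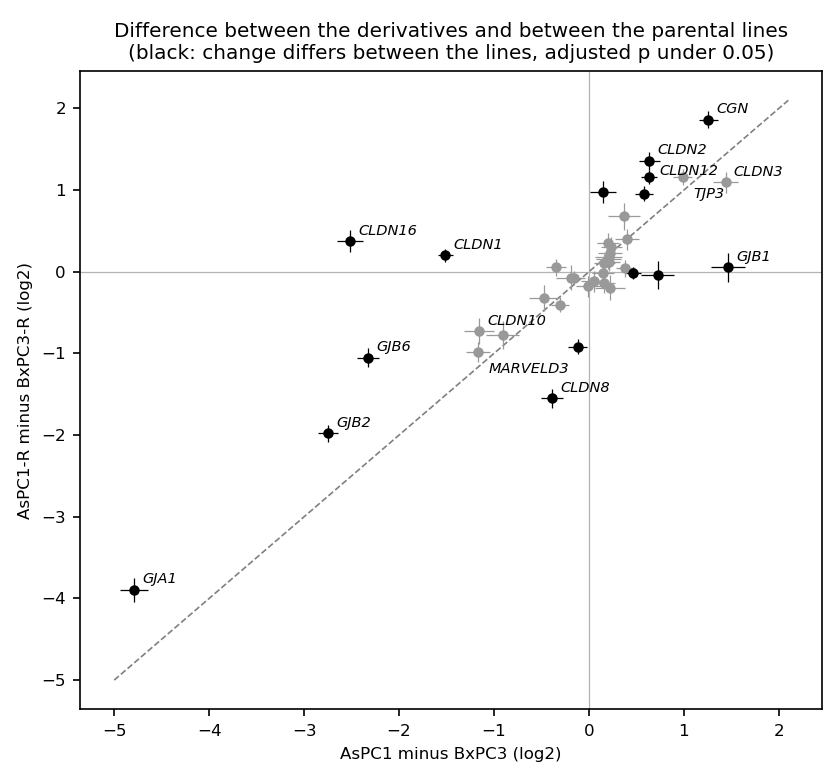
Log2 difference between the lines for each junction gene, AsPC1 minus BxPC3 on the horizontal axis and AsPC1-R minus BxPC3-R on the vertical axis, with standard errors from limma, where black points passed the test of the difference between the derivatives' changes and the dashed line marks equality. CLDN1, CLDN16 and GJB1 lie between 0.06 and 0.37 on the vertical axis, and GJA1, at -4.79 and -3.89, lies farthest from 0.

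The SDs of the junction genes ran from 0.02 to 0.37 over the arrays of a group, with a median of 0.14. In neither derivative were 21 of the 40 called. Of these, 11 were called in none of the comparisons: CLDN14, CLDN17, CLDN19, CLDN20, CLDN22, CLDN23, CLDN24, GJA3, GJA4, GJA5 and GJA10. Their changes lay between -0.21 and 0.21 in AsPC1-R and between -0.16 and 0.38 in BxPC3-R. The other 10, called with all arrays only between the lines, were CLDN3 (whose change of -0.33 in AsPC1-R had an adjusted p of 0.104, and of 0.0301 without BxPC3 replicate 2), CLDN5, CLDN9, CLDN10, CLDN11, CLDN15, CLDN34, GJB7, GJC1 and TJP1.

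Of 29 further tight junction genes measured (scaffolds, polarity proteins and their regulators), 2 rose and 3 fell in AsPC1-R (against 11.6% and 8.64% of all genes), with a median change of -0.04 against -0.05 over all genes. AMOTL1, an angiomotin that binds junction scaffolds and YAP, rose by 1.71 (adjusted p = 1.94e-07 in limma) and YBX3, a partner of TJP1, by 0.38 (adjusted p = 0.00773). PATJ, a multi-PDZ scaffold of the Crumbs polarity complex, fell by 0.54 (adjusted p = 8.96e-05), and CXADR, a junctional adhesion receptor, fell by 0.38 (adjusted p = 0.0123). In BxPC3-R 5 of the 29 rose and 6 fell (against 9.75% and 11% of all genes), with a median of -0.05 against 0.02, and 4 rose without BxPC3 replicate 2. CGNL1, the paralog of cingulin, rose by 0.84 (adjusted p = 0.000761) and the scaffold MAGI3 by 0.58 (adjusted p = 0.000533). AMOTL1 fell by 0.62 (adjusted p = 0.00182) and CXADR fell by 0.49 (adjusted p = 0.00188). PATJ, which fell in AsPC1-R, rose by 0.27 in BxPC3-R (adjusted p = 0.0138), and MAGI3, which rose in BxPC3-R, fell by 0.35 in AsPC1-R (adjusted p = 0.0179).

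Of 9 adherens junction genes, 1 rose and 3 fell in AsPC1-R (against 11.6% and 8.64% of all genes), with a median change of -0.07. In BxPC3-R 1 rose and 1 fell (against 9.75% and 11%), with a median of -0.04, against medians of -0.05 and 0.02 over all genes. NECTIN3, a nectin that starts cell contacts, rose in both, by 2.17 in AsPC1-R (adjusted p = 3.45e-09 in limma) and by 0.73 in BxPC3-R (adjusted p = 0.000156). CDH1, E-cadherin, fell by 0.46 in AsPC1-R (adjusted p = 0.00108), and its change in BxPC3-R was -0.12 (adjusted p = 0.362). NECTIN4 fell by 0.38 in AsPC1-R (adjusted p = 0.00502) and fell by 0.31 in BxPC3-R (adjusted p = 0.0160, and 0.0527 without replicate 2). Its means of 6.04 in AsPC1-R, 6.43 in AsPC1 and 6.41 in BxPC3-R lay under the median of all values. Of 6 other large-pore channel genes, PANX1, a pannexin that forms ATP release channels, rose by 0.69 in AsPC1-R (adjusted p = 0.000255), and none passed limma's threshold in BxPC3-R. The medians over these 6 were -0.09 in AsPC1-R and 0.04 in BxPC3-R.

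Of 17 transcription factors and splicing regulators known to control epithelial junction genes, 2 rose and 3 fell in AsPC1-R (against 11.6% and 8.64% of all genes), with a median of -0.12 against -0.05. In BxPC3-R 1 rose and 5 fell (against 9.75% and 11%), with a median of 0.08 against 0.02. Without BxPC3 replicate 2 the 5 that fell in BxPC3-R became 2, GRHL1 and GRHL3, and the 2 that rose in AsPC1-R became 3 with ZEB1, a repressor of epithelial genes (0.40, adjusted p = 0.0165). SNAI2, a repressor of epithelial genes, rose by 0.33 in AsPC1-R (adjusted p = 0.0161 in limma) and by 0.46 in BxPC3-R (adjusted p = 0.00148). OVOL1, which maintains epithelial identity, fell by 0.64 in AsPC1-R (adjusted p = 0.000522), to a mean of 6.10, under the median of all values. ELF3, an epithelial ETS factor, fell by 0.54 in AsPC1-R (adjusted p = 0.00146). KLF5 fell by 0.42 there (adjusted p = 0.0122), while KLF4 rose by 0.35 (adjusted p = 0.00397). In BxPC3-R KLF4 fell by 0.23 (adjusted p = 0.0439, and 0.0671 without replicate 2). GRHL3, ESRP2 and ELF3 fell in BxPC3-R by 0.42, 0.40 and 0.37 (adjusted p = 0.00763, 0.0170 and 0.0163). Without replicate 2, ESRP2 and ELF3 were not called (adjusted p = 0.0740 and 0.0536). GRHL1, a grainyhead factor of epithelia, fell by 0.94 in BxPC3-R (adjusted p = 2.39e-06), and its change in AsPC1-R was 0.01 (adjusted p = 0.928). However, GRHL1 averaged 6.23 in AsPC1-R and 6.21 in AsPC1, under the median of all values, where a fall may not be readable.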

How the data were processed

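Total RNA of 4 groups, 3 arrays each, was amplified, labelled with biotin and hybridized to Affymetrix arrays, per the labels' protocols. The deposited values are log2 levels that the authors summarised with RMA in Affymetrix Expression Console, per the submitters' processing notes (versions and probe set build: not given in the sources used here). RMA leaves array medians near equal (6.48 to 6.65), which does not measure the precision of a value. With 3 arrays per group the precision is limited.

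Of 33297 probe sets, 19460 with 1 gene symbol were kept, and 1754 with several and 12083 with none listed were left out. Where a gene had several probe sets (769 genes), the brightest by its mean over all arrays was taken. MARVELD2 was the 1 junction gene with several, and they held the same values. Group means of all 12 arrays were fitted with limma 3.58.1 (lmFit and eBayes, R 4.3.3, 8 residual and 5.47 prior degrees of freedom), with two-sided tests and Benjamini-Hochberg adjustment over 18417 genes, and the fit was tested on simulated data. SE is limma's standard error. The members and gene lists were chosen with earlier results of these data known.

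Array values are given for members called with at least 2-fold change in a derivative, called in opposite directions in both, or among the 6 largest differences per direction between the parents. CGN, TJP1, CLDN1, CLDN4, CLDN7, CLDN18, GJA1 and GJB2 are named in any case, and from each other list up to 4 called members per derivative. Beyond that rule, PATJ and MAGI3 are named in both derivatives, and every called member of the list of transcription factors and splicing regulators is named. Array values of CLDN4, CLDN7, CLDN12, CLDN18, GJB5, GJC3, MARVELD2 and TJP1 were added after the values were seen, as were the direct comparison of the derivatives and the neighbouring genes. Alternatives were a replicate block, a filter on dim genes, a further quantile normalization, median centring, a trended and robust eBayes, a fit of the compared groups alone, probe sets averaged per gene, array weights and leaving out each array. Promoter windows came from RefSeq on GRCh38.p14, where 30 of the 40 members matched, and all 40 matched its gene table.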

Additional observations from a re-analysis of the deposited data

Results flagged for a closer look

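The change in AsPC1-R and the change in BxPC3-R differed, by limma's test of that difference adjusted over all 18417 genes, for 15 junction genes, against 25.4% of all genes. A positive value means a higher change in AsPC1-R. The claudin differences were 2.89 for CLDN16, 1.72 for CLDN1, 0.72 for CLDN2, 0.53 for CLDN12, 0.38 for CLDN4, -0.76 for CLDN6 and -1.16 for CLDN8. The connexin differences were 1.27 for GJB6, 0.90 for GJA1, 0.83 for GJC3, 0.78 for GJB2, -0.80 for GJB5 and -1.41 for GJB1. CGN differed by 0.61 and MARVELD2 by -0.49. CLDN1 and CLDN16 were called in both derivatives with opposite signs. Leaving out BxPC3 replicate 2 ended the call for CLDN4, at an adjusted p of 0.105, and kept the other 14. The call for CLDN6 ended on leaving out any 1 of 8 of the other arrays, with an adjusted p of up to 0.0992.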

How the results depend on the processing

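Single calls were followed through the alternatives only for the members whose array values are given above. No called difference of these members turned its direction under any alternative. They had 70 calls over the 5 comparisons, of which 62 were kept in every setting. Of 1373 comparisons of such a call with an alternative, 1322 kept it. The calls of the other members were not checked in this way. The number of members called stayed within 1.5 times: 8 to 10 in AsPC1-R, 12 to 17 in BxPC3-R, 12 to 16 for the difference between the changes, 17 to 25 between the parents and 17 to 24 between the derivatives. With the dim genes left out it was 8, 12, 12, 17 and 18. Leaving out 1 array at a time gave 8 to 10, 12 to 15, 13 to 15, 21 to 25 and 17 to 22. Among the members checked in every setting, calls ended for CGN and TJP3 in BxPC3-R and for CLDN6 and MARVELD2 in AsPC1-R. They also ended for CLDN4 and CLDN6 in the difference between the changes, and for TJP1 between the parents (adjusted p up to 0.0568). Between the derivatives, the call of CLDN16 ended (adjusted p up to 0.169, without AsPC1-R replicate 1). Of the other members, CLDN5 and CLDN34 lost their call between the parents without BxPC3 replicate 2 (adjusted p = 0.0844 and 0.129 in limma). For CGN in BxPC3-R 13 settings ended the call, quantile normalization once more among them (-0.25, adjusted p = 0.0664). The cause was not tested. A replicate block by array number gave 8, 14, 14, 23 and 21 calls, and ended those of CGN in BxPC3-R (adjusted p = 0.0710) and of CLDN4 for the difference between the changes (adjusted p = 0.0609). The deviations of arrays with the same number had correlations of -0.03, -0.24 and -0.20 for AsPC1-R with AsPC1. For BxPC3-R with BxPC3 the correlations were 0.17, -0.09 and 0.08. No pairing by number was seen in these values. With so few arrays per group, however, they cannot exclude that equal numbers mark paired samples. Values near the level read without transcript limit what can be said of CLDN8, CLDN6, CLDN10, CLDN18 and GJC3, and of GJA1, GJB6 and CLDN16 in AsPC1. Such values also limit what can be said of GJB1 in AsPC1-R, BxPC3-R and BxPC3.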

Other observations

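Up to 3 protein-coding genes on each side of 10 junction genes that changed were read after the junction values had been seen, in RefSeq's order on GRCh38.p14. Of 38 such neighbours measured, 5 rose and 4 fell in AsPC1-R (against 11.6% and 8.64% of all genes), and 4 rose and 12 fell in BxPC3-R (against 9.75% and 11%). In opposite directions in both derivatives, 6 were called, against 5.38% of all genes. On chromosome 3, where CLDN16 and CLDN1 lie between P3H2 and TMEM207, IL1RAP, an accessory chain of interleukin receptors, follows TMEM207. IL1RAP averaged 9.19 in AsPC1-R and 8.42 in AsPC1, and 9.89 in BxPC3-R and 10.37 in BxPC3. It rose in AsPC1-R by 0.77 (SE 0.08, adjusted p = 1.20e-05 in limma) and fell by 0.48 in BxPC3-R (adjusted p = 0.000699), the same directions as CLDN1 and CLDN16. P3H2, a collagen prolyl hydroxylase, had a change of -0.37 in AsPC1-R (adjusted p = 0.137) and rose in BxPC3-R by 0.92 (adjusted p = 0.00105). TMEM207 averaged 4.28 in AsPC1-R and 4.31 in AsPC1, with a change of -0.03 (adjusted p = 0.903), and its change in BxPC3-R was -0.26 (adjusted p = 0.140).

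On chromosome 13, GJA3, GJB2 and GJB6 are followed by CRYL1 and IFT88. GJA3, a lens connexin, had changes of -0.03 in AsPC1-R (adjusted p = 0.881 in limma) and -0.04 in BxPC3-R (adjusted p = 0.888), beside the falls of GJB2 and GJB6 in BxPC3-R. CRYL1, a crystallin-like dehydrogenase, fell by 0.89 in BxPC3-R (adjusted p = 0.000856), and its change in AsPC1-R was -0.18 (adjusted p = 0.466). IFT88, a cilium transport protein, rose in BxPC3-R by 0.47 (adjusted p = 0.00152) and fell by 0.27 in AsPC1-R (adjusted p = 0.0458). CRYL1 was higher in AsPC1 than in BxPC3 by 1.21 (adjusted p = 1.62e-05), whereas GJB2 and GJB6 were lower in AsPC1, with log2 differences of -2.75 and -2.33.

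Beside GJA1 on chromosome 6, MAN1A1 (a Golgi mannosidase), FAM184A and TBC1D32 fell in BxPC3-R, with log2 changes of -1.36, -1.32 and -0.35 (adjusted p = 1.15e-05, 0.000235 and 0.0280 in limma). MAN1A1 also fell by 0.44 in AsPC1-R (adjusted p = 0.0425). PKIB, an inhibitor of protein kinase A on the other side of GJA1, fell by 1.17 in AsPC1-R (adjusted p = 0.000458) and rose by 1.15 in BxPC3-R (adjusted p = 0.000462), and SERINC1 had changes of 0.36 and -0.29 (adjusted p = 0.00251 and 0.00995). On chromosome X, MORC4 beside CLDN2 rose by 0.89 in AsPC1-R (adjusted p = 0.000287), and TBC1D8B fell by 0.90 in BxPC3-R (adjusted p = 6.32e-05). IL2RG, near GJB1, rose by 1.08 in AsPC1-R (adjusted p = 3.27e-07) and fell by 1.59 in BxPC3-R (adjusted p = 1.23e-08), while GJB1 itself fell in AsPC1-R. BACH1, near CLDN8 on chromosome 21, rose by 0.26 in AsPC1-R (adjusted p = 0.0385) and fell by 0.92 in BxPC3-R (adjusted p = 2.42e-06).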
